A study of Mus musculus with 25 samples.

Results

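Epidermal stem cells (EpdSC) of mouse back skin had 2177 regions of open chromatin in which no peak was listed for hair follicle stem cells (HFSC), for cells of healing wounds or for tumour-initiating cells of squamous cell carcinoma (SCC). They were found by joining the deposited ATAC-seq peak lists of the 4 populations on chromosomes 1 to 19 and X wherever peaks overlapped by at least 1 base, and keeping the joined regions that held an EpdSC peak and none from another list. The 2177 regions, each made of 1 peak, came from 98107 joined regions in all and were 8.59% (95% Wilson interval 8.25 to 8.94) of the 25339 regions with an EpdSC peak. HFSC had 19924 regions of their own (36.3% of 54929), tumour cells 15423 (29.2% of 52796) and wound cells 12573 (22.4% of 56016).

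ATAC-seq cuts accessible DNA with the Tn5 transposase, so a peak marks a stretch of DNA that is open in many of the sorted cells. The ATAC samples came from female mice of mixed CD1/B6 strain. HFSC (integrin alpha 6 high, CD34 positive, Sca1 negative) and EpdSC (integrin alpha 6 high, CD34 negative, Sca1 positive) were sorted from back skin at postnatal day 50. The tumour cells were GFP positive cells with high integrin alpha 6 and beta 1 from grafted SCC driven by HRas, and the wound cells were sorted as positive for integrin alpha 6 and Sca1 after wounds through part or all of the skin's thickness. Each population had 1 list called on pooled alignments, so presence or absence of a peak has no replicate check, and a list holds only what passed the peak caller's q-value of 0.05. RNA was counted in 21 libraries from female B6 mice, and the protocols give postnatal day 60 for adult skin. Apart from the tumours, cells were sorted as lineage negative with high integrin alpha 6, and unwounded HFSC and EpdSC by CD34 and Sca1 as above. Each of 4 groups had 2 libraries in the set CL, namely unwounded EpdSC, unwounded HFSC, and the EpdSC and HFSC lineage after wounding. The wounded groups of CL came from Sox9CreER;R26-YFP mice, in which Cre under Sox9 control marks the follicle lineage with YFP, and were sorted as YFP positive (HFSC lineage) and YFP negative (EpdSC), so the gate differed along with wounding. In the set BK, EpdSC and HFSC had 2 libraries apiece, and a single library came from wounded EpdSC with no YFP gate. The counts of that library are labelled BK05_WdEpiA5pos3. The wounded labels of CL lack the tag A5pos3, and what it marks was not analysed. The set DS held 6 libraries of grafted tumours (HRas, HRas TbrKO and TbrKO, each with high and low integrin alpha 6, GFP positive) plus an EpdSC and an HFSC library that carry the label Tbr.

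The epidermis between hair follicles is renewed by stem cells of its basal layer, while HFSC rest in the bulge and rebuild the follicle. Enhancers, stretches of regulatory DNA away from gene starts, tend to be open in the cell types that use them, whereas the promoters of widely used genes are open in most cells. A region is described here with the coding gene whose listed start lies nearest, within 50 kb, which is a convention and not evidence that the region acts on that gene.

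Few of the regions covered a promoter in whole or in part, and 6 of those that did are shown because their genes recur in the RNA results. Each sequence is the 250 bases before the gene's start in RefSeq (build GRCm38.p6, the same assembly as mm10), written 5′ to 3′ on the gene's strand. The promoter of Il33, the gene of an alarm cytokine of the interleukin 1 family, is chr19:29945540-29945789 on the + strand. Gabrp, a subunit of the GABA-A receptor, has its promoter at chr11:33578958-33579207 on the − strand. Egr4, an immediate early transcription factor, starts after chr6:85513590-85513839 on the − strand. H2-M2, a nonclassical major histocompatibility gene, starts after chr17:37483555-37483804 on the − strand. Disp1, which releases hedgehog ligands from the cells that make them, starts after chr1:183147558-183147807 on the − strand. The promoter of Aadacl3, a gene of the arylacetamide deacetylase family, is chr4:144463757-144464006 on the − strand. Capitals mark matches to any of 20 short motifs, and the letters of those found in these 6 sequences are given further on.
Il33: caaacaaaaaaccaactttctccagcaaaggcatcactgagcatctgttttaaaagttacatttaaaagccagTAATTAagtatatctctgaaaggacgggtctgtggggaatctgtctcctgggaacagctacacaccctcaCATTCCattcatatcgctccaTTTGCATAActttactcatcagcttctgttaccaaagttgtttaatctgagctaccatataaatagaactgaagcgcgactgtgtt
Gabrp: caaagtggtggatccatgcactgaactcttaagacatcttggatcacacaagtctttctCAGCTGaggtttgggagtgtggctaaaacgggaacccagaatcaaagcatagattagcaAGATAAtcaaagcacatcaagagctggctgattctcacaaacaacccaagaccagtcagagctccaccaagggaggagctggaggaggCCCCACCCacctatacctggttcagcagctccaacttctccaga
Egr4: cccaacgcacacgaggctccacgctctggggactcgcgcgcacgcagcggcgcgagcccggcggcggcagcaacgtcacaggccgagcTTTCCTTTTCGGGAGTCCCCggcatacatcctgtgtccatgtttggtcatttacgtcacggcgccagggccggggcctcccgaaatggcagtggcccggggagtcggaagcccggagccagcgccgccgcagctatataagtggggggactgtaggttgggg
H2-M2: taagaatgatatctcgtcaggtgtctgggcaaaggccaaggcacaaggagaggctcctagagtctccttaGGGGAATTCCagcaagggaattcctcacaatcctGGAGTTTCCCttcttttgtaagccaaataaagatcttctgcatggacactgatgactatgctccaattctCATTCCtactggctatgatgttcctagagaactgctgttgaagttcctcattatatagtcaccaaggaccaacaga
Disp1: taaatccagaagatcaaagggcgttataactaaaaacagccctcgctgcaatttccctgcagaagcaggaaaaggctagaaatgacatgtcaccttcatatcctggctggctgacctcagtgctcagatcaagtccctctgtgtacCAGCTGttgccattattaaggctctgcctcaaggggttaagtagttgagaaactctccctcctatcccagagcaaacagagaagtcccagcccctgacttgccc
Aadacl3: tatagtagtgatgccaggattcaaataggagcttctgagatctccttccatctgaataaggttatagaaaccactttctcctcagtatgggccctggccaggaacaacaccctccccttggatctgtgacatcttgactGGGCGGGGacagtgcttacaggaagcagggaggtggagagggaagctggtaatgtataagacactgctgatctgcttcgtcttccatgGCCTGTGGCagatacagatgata
In Il33 the capitals are a homeodomain, a TEAD and overlapping POU and C/EBP matches, and the summit of the EpdSC peak lay 71 bases before the start. That peak began at base 29945664 of chromosome 19, inside the printed sequence, so the homeodomain match lies outside it. Gabrp has an E-box, a GATA and a KLF match, with the summit 35 bases before the start. Egr4 has adjoining IRF and NF-kB matches and H2-M2 has 2 NF-kB matches and a TEAD match, with summits 57 and 191 bases before their starts. Disp1 has 1 E-box, and Aadacl3 has a KLF and a TFAP2 match, with summits 38 and 166 bases before their starts. The peaks of Egr4 and Disp1 also covered only part of the printed bases, with the matches inside them. A match is a run of letters and does not show that a factor was bound.

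The regions found in EpdSC alone were the weaker part of the EpdSC list. By the authors' values, their fold enrichment over local background had a median of 4.85 (range 1.91 to 14.2), against 6.35 for the 23562 EpdSC peaks that overlapped another list. The pileup at the summit had a median of 14 fragments against 22, the length 380 bases against 578, and −log10 q 5.42 against 10.97. When all EpdSC peaks were ordered by fold and divided in 4 groups of near equal size, 16.7% of the weakest group, 8.96% and 5.78% of the middle groups and 2.53% of the strongest were found in EpdSC alone. Peaks found in HFSC alone were also weaker, with a median fold of 4.52 against 5.69 for the whole HFSC list. Both sets were selected on the presence and absence of peaks in these lists, so these values are a description. The lists also rest on unequal depth, with 13963471 fragments for EpdSC, 26825550 for HFSC, 29579794 for the tumour and 11140895 for the wound, and how far depth set the lists was not tested. Of the 25339 EpdSC regions, 19892 (78.5%) also held an HFSC peak, 21027 (83.0%) a wound peak and 17533 (69.2%) a tumour peak. These were 36.2% of the HFSC, 37.5% of the wound and 33.2% of the tumour regions.

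The overlap rule draws a sharp line through a gradual measure. The nearest peak of another list lay at a median of 7297 bases, at 10000 bases or more for 935 regions, under 500 bases for 139 and under 100 bases for 33, the closest touching with a gap of 0 bases. On the other side of the line, the smallest overlap that counted as shared was 2 bases, and 40 shared EpdSC peaks overlapped by under 50 bases. The share of EpdSC regions that were found in EpdSC alone ranged from 5.80% on chromosome 11 (79 of 1362) to 12.4% on chromosome X (87 of 702), with 101 of 920 on chromosome 14 and 10.6% on chromosome 13 (144 of 1361). Some regions stood near each other, with another such region within 50 kb for 526 (24.2%) and within 10 kb for 158 (7.26%).

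**Figure D1:**
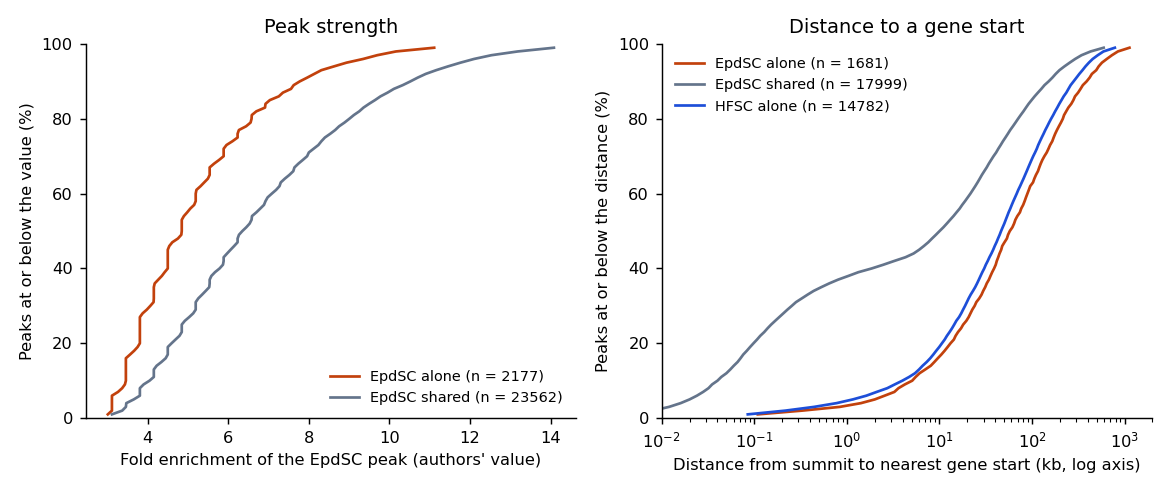
Cumulative percent of EpdSC peaks by fold enrichment (left, authors' value; median 4.85 for peaks in EpdSC alone and 6.35 for shared ones) and cumulative percent of regions by distance from summit to nearest listed gene start (right, log axis in kb, regions with a known nearest start). Lines join percentiles 1 to 99; shared EpdSC peaks gather within 1 kb of starts, while EpdSC-alone and HFSC-alone peaks run close together far from them.

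Most regions lay far from gene starts. The nearest start was known for 1681 regions, and for the other 496 it may belong to a coding gene whose start is not in the table used here. The summit was within 1 kb of a start in 53 of the 1681 (3.15%, Wilson interval 2.42 to 4.10), against 6825 of 17999 shared EpdSC peaks (37.9%, 37.2 to 38.6) and 681 of 14782 regions found in HFSC alone (4.61%, 4.28 to 4.96). Shared EpdSC peaks were thus far more often at promoters than regions of either population alone, with intervals well apart. The intervals of the EpdSC-alone and HFSC-alone shares did not meet at 1 kb either, though both shares were low. They did meet within 500 bases, at 1.91 to 3.43 and 2.89 to 3.45, and narrowly at the next 2 distances. Within 2.5 kb they were 4.97 to 7.25 and 7.24 to 8.10, and within 10 kb 14.95 to 18.51 and 18.45 to 19.71. Within 50 kb of a start lay 788 regions (46.9%, 44.5 to 49.3), against 74.4% of the shared peaks. Of the HFSC-alone regions 51.9% did (51.1 to 52.7), so the intervals of the EpdSC-alone and HFSC-alone shares were again apart. The median distance was 57540 bases, against 10040 and 46330. The summit lay inside a coding gene, from its first to its last base, in 927 of all 2177 regions (42.6%, 40.5 to 44.7). This was so for 53.9% of shared peaks and 49.6% of HFSC-alone regions (48.9 to 50.3), an interval that did not meet that of the EpdSC-alone regions.

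The RNA libraries held between 14216472 and 36425082 reads counted in genes, and the sorted populations matched their gates for the marker that tells them apart. Levels below are CPM, the counts scaled to a common library size, after TMM scaling over all 21 libraries. Cd34, the sort marker of HFSC, was at 691 and 429.5 CPM in the HFSC libraries of CL and at 4.48 and 9.00 in EpdSC, and at 2596 and 3098 against 6.59 and 17.5 in BK. Ly6a, which encodes Sca1, was at 203.9 and 224.7 CPM in EpdSC and 38.0 and 60.9 in HFSC of CL. Separate animals are not stated for the libraries of any group, so p-values measure the spread between these libraries, which may be technical. In sorted pools, fewer cells of a type and less RNA per cell cannot be told apart.

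Genes near the regions were more often higher in EpdSC than in HFSC when their RNA, which the rule did not use, was compared. The nearest starts within 50 kb belonged to 678 coding genes, of which 591 had 1 region, 70 had 2 and 17 had 3 or more, and 656 were in the count table. In CL, 60 of the 518 that passed the filter on low counts were called higher in EpdSC (11.6%, where all 14831 genes tested gave 3.63) and 35 lower (6.76%, all genes 7.19), by edgeR's quasi-likelihood test at an adjusted p of 0.05. In BK, 87 of 505 were called higher (17.2%, all genes 6.47) and 37 lower (7.33%, all genes 7.91). So the share called higher was above that of all genes in both sets, and the share called lower was near it. The median log2 fold change of the genes near the regions was 0.18 in CL and 0.40 in BK, against 0.02 and 0.03 over all genes tested. Near regions found in HFSC alone, genes called lower in EpdSC were more frequent than among all genes, and those called higher slightly so. In CL, 165 of 3560 (4.63%, all genes 3.63) were higher and 502 (14.1%, all genes 7.19) lower. In BK, 287 of 3541 (8.11%, all genes 6.47) were higher and 516 (14.6%, all genes 7.91) lower. Their median log2 fold changes were -0.04 and -0.05.

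The 2 lists of genes overlap, since 296 of the 678 were also among the 4449 nearest to a region found in HFSC alone. Without the genes that had an HFSC-alone region within 50 kb, 29 of 226 (12.8%) were higher and 8 (3.54%) lower in CL, and 40 of 215 (18.6%) higher and 8 (3.72%) lower in BK. The counts depended on single libraries. Without the first or the second EpdSC library of CL, 19 (3.51%) and 23 (4.24%) were called higher, where 0.823% and 1.15% of all genes were, and without the first HFSC library 27 (4.97%, all genes 1.23%) were, while the count called lower was 11 (2.03%, all genes 2.37%), 15 (2.76%, all genes 2.93%) and 22 (4.05%, all genes 4.30%). In BK, leaving out the first or second EpdSC library raised the count called higher to 200 (40.2%) and 134 (26.9%), against 3335 (23.1%) and 2314 of all genes, and leaving out the first HFSC library lowered it to 47 (9.51%, all genes 3.19%). The count called lower in BK was 84 (16.9%, all genes 21.9%) and 89 (17.9%, all genes 17.9%) without the first or second EpdSC library. No comparison across these counts was tested.

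**Figure D2:**
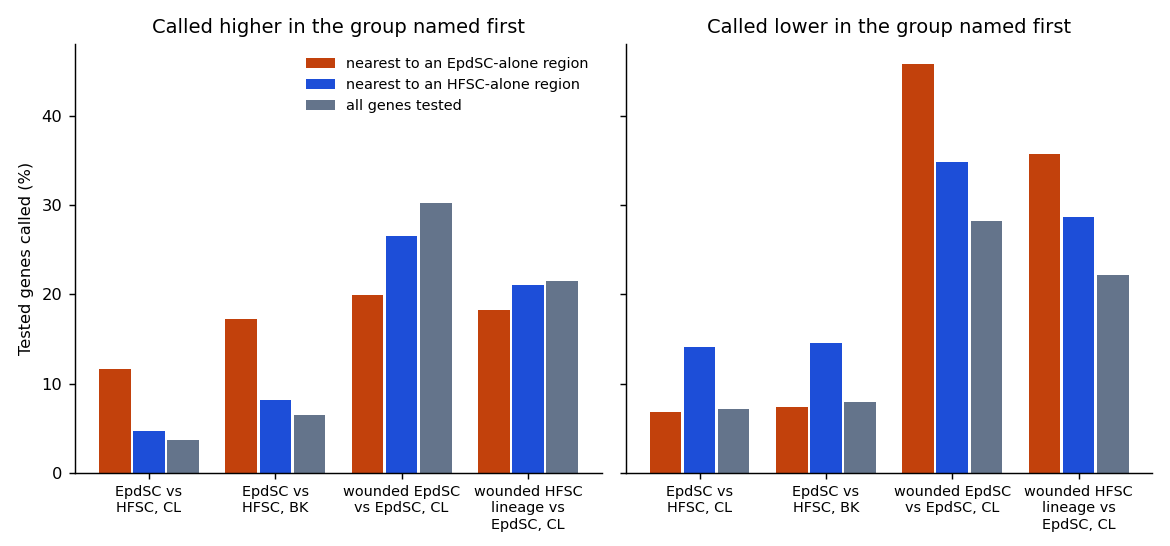
Percent of tested genes that edgeR called higher (left) or lower (right) in the group named first, for genes nearest to an EpdSC-alone region, genes nearest to an HFSC-alone region and all genes tested, in 4 comparisons. Near EpdSC-alone regions 11.6% (CL) and 17.2% (BK) were higher in EpdSC, against 3.63% and 6.47% of all genes, and 45.8% were lower in wounded EpdSC, against 28.2%.

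Of the 494 genes near the regions that were tested in both sets, 40 were called higher in EpdSC in both (8.10%, where all 14134 genes gave 2.07) and 22 lower in both (4.45%, all genes 4.6). The EpdSC library labelled Tbr, set against the HFSC library labelled Tbr with 1 library each and no test, lay on the same side for all 40 and all 22, as it did for 292 of the 293 genes of the whole table that were higher in both sets. All 40 kept their direction in each fit that left out a library, but 14 to 30 of them were still called in CL without 1 of its libraries, and 25 and 30 in BK without 1 of its HFSC libraries. The 40 include transcription factors, signalling proteins, transporters and regulators of inflammation.

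Among transcription factors, Sox6, a member of the SOX family that acts in cell fate choices of many tissues, was at 3.52 and 8.24 CPM in the HFSC and 154.2 and 109.6 in the EpdSC libraries of CL. In BK it was at 2.92 and 5.70 CPM in HFSC and 61.1 and 103.9 in EpdSC. Every EpdSC library stood far above every HFSC library, a log2 fold change of 4.5 ± 0.55 (SE; adjusted p = 0.00203, edgeR) in CL and 4.27 ± 0.51 (0.00588) in BK. Its region, chr7:116034122-116034624, lay 3488 bases upstream of the listed start and inside the gene as annotated, only 11 bases from a peak of another list. Gata3, a factor of epidermal and T cell differentiation, was at 121.5 and 166.5 CPM in HFSC and 474.9 and 395.1 in EpdSC of CL, and at 86.6 and 88.2 against 236.9 and 439.5 in BK. The groups did not overlap in either set, with log2 fold changes of 1.60 ± 0.27 (adjusted p = 0.00872, edgeR) and 1.97 ± 0.40 (0.0255). Its region, chr2:9859853-9860507, lay inside the gene, 18363 bases past the start. Satb1, a chromatin organiser, rose from 11.1 and 17.8 CPM in HFSC to 110.0 and 103.7 in EpdSC of CL, and from 8.32 and 9.95 to 57.0 and 115.3 in BK. Its log2 fold changes were 2.89 ± 0.32 (adjusted p = 0.00129, edgeR) and 3.25 ± 0.45 (0.00767). The bZIP factor Hlf (2.54 ± 0.35 in CL and 2.58 ± 0.36 in BK) and the homeobox factor Meis2 (1.5 ± 0.31 and 2.75 ± 0.47) were higher in both sets as well.

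Among secreted ligands, Bmp4, a bone morphogenetic protein, had 3 regions, at chr14:46422311-46422818, chr14:46423444-46423708 and chr14:46439584-46440058, all 31831 to 49203 bases upstream of its start. Its RNA was at 3.19 and 4.58 CPM in the HFSC and 60.8 and 68.1 in the EpdSC libraries of CL, and at 2.32 and 4.11 against 45.9 and 71.1 in BK. EpdSC libraries were again all above HFSC libraries, by a log2 fold change of 4.06 ± 0.42 (adjusted p = 0.00107, edgeR) in CL and 4.19 ± 0.47 (0.00483) in BK. Gdnf, a ligand of the Ret receptor, had 2 regions and log2 fold changes of 2.11 ± 0.48 and 1.66 ± 0.31. Il33, whose promoter is shown above, was at 66.2 and 81.3 CPM in HFSC and 337 and 321.5 in EpdSC of CL, and at 12.7 and 23.2 against 267.6 and 322.7 in BK. The groups did not overlap, and the log2 fold change was 2.16 ± 0.52 (adjusted p = 0.0343, edgeR) in CL and 4.04 ± 0.45 (0.00483) in BK. Il1rap, the accessory chain shared by the receptors of interleukin 1 and of Il33, was higher by 1.5 ± 0.34 and 1.76 ± 0.31.

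Among receptors, channels and transporters, Slc2a12, a glucose transporter, was at 20.1 and 25.6 CPM in HFSC and 270.1 and 256.9 in EpdSC of CL, and at 27.2 and 33.4 against 231.9 and 269.1 in BK. Its libraries agreed closely within groups, and its log2 fold changes were 3.54 ± 0.27 (adjusted p = 0.000359, edgeR) and 3.06 ± 0.33 (0.00477). The gene had a region 12934 bases upstream, chr10:22631846-22632645, and a region inside it, chr10:22660407-22661007. Gabrp had 3 regions and was at 1.15 and 2.08 CPM in HFSC and 40.7 and 29.6 in EpdSC of CL, and at 3.23 and 10.3 against 38.1 and 54.9 in BK. Its log2 fold change was 4.46 ± 0.51 (adjusted p = 0.00152, edgeR) in CL and 2.78 ± 0.61 (0.0323) in BK. Npr3, the clearance receptor of natriuretic peptides (3.22 ± 0.57 and 3.44 ± 0.71), and the adhesion receptor Adgrg2 (2.91 ± 0.27 and 3.89 ± 0.86) were higher in both sets, and Gja1, a gap junction protein, rose by 2.81 ± 0.24 and 1.82 ± 0.35. The region of Npr3, like that of Sox6, lay 11 bases from a peak of another list.

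Regulators of inflammation and stress proteins formed a further part of the 40. Tnfaip3, a feedback inhibitor of NF-kB, was at 184.0 and 398 CPM in HFSC and 1249 and 1311 in EpdSC of CL, and at 32.1 and 50.2 against 272.6 and 842 in BK, a log2 fold change of 2.14 ± 0.38 (adjusted p = 0.00994, edgeR) and 3.77 ± 0.65 (0.015). Tnip3, which acts with Tnfaip3, rose by 5.40 ± 1.10 and 4.55 ± 0.72 but stayed at or below 3.15 CPM in the EpdSC libraries of both sets. Serpinb2, an inhibitor of plasminogen activators (3.25 ± 0.64 and 3.75 ± 0.65), Cd55, which shields cells from complement (1.86 ± 0.31 and 3.32 ± 0.65), and the heat shock cochaperone Dnajb1 (1.19 ± 0.27 and 1.84 ± 0.31) were also higher. Beside these, the AP-1 factors, whose genes respond to cell handling within minutes to hours, summed to 30040 to 32370 CPM in EpdSC and 16910 to 30340 in HFSC of CL, and to 20140 to 25490 against 3603 to 4918 in BK. Of the AP-1 list, 1 of 10 tested genes was higher in CL and 6 of 9 in BK (all genes 3.63% and 6.47%). The part of this difference in the results was not tested.

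Genes of cell shape and barrier completed the strongest 12, the genes with the largest smaller value of the 2 fold changes. Prickle1, of the planar polarity pathway (3.46 ± 0.32 in CL and 3.32 ± 0.37 in BK), the actin bundling protein Pls1 (4.68 ± 0.50 and 3.77 ± 0.50), the small GTPase Rab27a (2.93 ± 0.37 and 3.31 ± 0.37) and Hs3st1, a heparan sulfate sulfotransferase (3.33 ± 0.80 and 3.40 ± 0.49), were all higher in EpdSC. Tgm3, a transglutaminase that crosslinks proteins of the cornified layer, was at 3.14 and 7.89 CPM in HFSC and 61.2 and 44.9 in EpdSC of CL, and at 3.77 and 7.63 against 103.4 and 72.6 in BK. EpdSC libraries of both sets stood above all HFSC libraries, by 3.28 ± 0.50 (adjusted p = 0.00536, edgeR) and 3.95 ± 0.47 (0.00588).

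**Figure D3:**
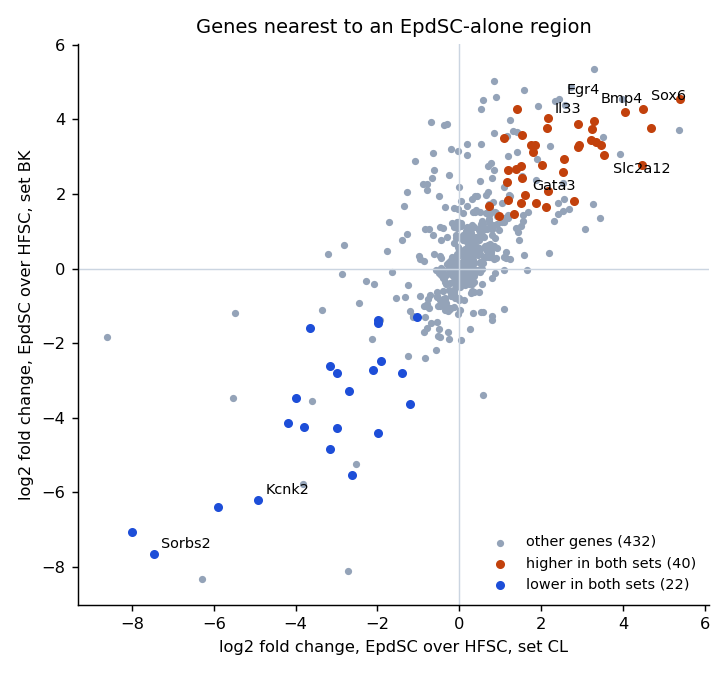
log2 fold change of EpdSC over HFSC in set CL (x axis) and set BK (y axis) for the 494 genes nearest to an EpdSC-alone region that were tested in both. The 40 genes higher in both sets lie at upper right and the 22 lower in both at lower left; 8 genes are named, of which Egr4 passed in BK only.

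A region open in EpdSC alone also lay nearest to genes with far less RNA in EpdSC. Kcnk2, a background potassium channel, was at 66.4 and 39.0 CPM in HFSC and 2.01 and 1.41 in EpdSC of CL, and at 172.7 and 177.8 against 1.61 and 3.15 in BK. HFSC libraries were all far above EpdSC libraries, with log2 fold changes of -4.91 ± 0.49 (adjusted p = 0.000854, edgeR) and -6.20 ± 0.48 (0.00278). The adaptor protein Sorbs2 (-7.47 ± 1.34 and -7.64 ± 0.63), Pdzrn4 (-5.89 ± 0.74 and -6.38 ± 0.79), the calcium channel Cacna1c (-4.19 ± 0.49 and -4.15 ± 0.82) and Ggact (-3.79 ± 0.50 and -4.25 ± 0.47) were lower in both sets. Tceal3 had 0 counts in both EpdSC libraries of CL, at least 8.13-fold below HFSC when each library at 0 is given 3 counts, and its log2 fold change in BK was -7.06 ± 0.69. Cxcl12, a chemokine, and Dact2, an intracellular inhibitor in Wnt signalling, were among the other 16, with log2 fold changes of -1.98 ± 0.34 and -3.98 ± 0.71 in CL and -4.42 ± 0.37 and -3.47 ± 0.51 in BK.

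None of the regions had a peak in the wound list, and in CL, though not in the single wounded library of BK, the genes near them were more often lower in wounded EpdSC than genes at large. Of the 518 genes tested, 237 (45.8%, where all genes gave 28.2) were lower and 103 (19.9%, all genes 30.2) higher in wounded EpdSC than in EpdSC of CL, with a median log2 fold change of -0.87 against -0.04 over all genes. In BK, with levels of 1 wounded library and no test, 170 of 494 genes (34.4%, all genes 38.9) lay below both EpdSC libraries and 218 (44.1%, all genes 40.9) above both. In the wounded HFSC lineage against EpdSC, 185 (35.7%, all genes 22.2) were lower and 95 (18.3%, all genes 21.5) higher, with a median of -0.46 against 0.00. Without the first or second EpdSC library, the count higher in wounded EpdSC was 61 (11.3%, all genes 18.9%) and 62 (11.4%, all genes 18.8%). In the wounded HFSC lineage it was 40 to 56 without any 1 library (7.38 to 10.3%, all genes 11 to 14.8%). The count lower there was 108 without its first library (19.9%, all genes 12.1%), and 120 (22.1%, all genes 12.2%) and 119 (21.9%, all genes 13%) without the first or second EpdSC library. These comparisons use the same EpdSC libraries, which also enter the comparison with HFSC. Genes near HFSC-alone regions gave 1242 lower (34.9%) and 948 higher (26.6%) of 3560 in wounded EpdSC. Genes near the regions were longer, with a median extent of 47.3 kb against 23.5 kb over all genes tested, and longer genes were more often lower in wounded EpdSC. Among genes up to 13.8 kb, 15.9% of all genes and 32.2% of those near the regions were lower, from there to 40.2 kb 25.9% and 39.3%, and above that 41.1% and 53.6%. The share was above that of all genes in each length band, and the part of gene length in the falls was not tested.

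Of the 40 genes higher in EpdSC in both sets, 28 were lower and 4 higher in wounded EpdSC, with a median log2 fold change of -2.55, and 27 were lower and 4 higher in the wounded HFSC lineage, with a median of -2.36. The 293 genes of the whole table that were higher in both sets gave 189 lower and 40 higher (median -1.53) and 187 lower and 35 higher (median -1.5). Over all genes tested, 28.2% were lower and 30.2% higher in wounded EpdSC, and 22.2% and 21.5% in the wounded HFSC lineage. The 40 and the 293 were selected as high in the same EpdSC libraries of CL, which favours a fall, so their counts are a description. Bmp4 was at 0.299 and 1.00 CPM in the wounded EpdSC libraries of CL, below every EpdSC library, a log2 fold change of -6.60 ± 0.50 (adjusted p = 5.65e-05, edgeR). Tnfaip3 was at 14.5 and 21.4 CPM (-6.17 ± 0.45, adjusted p = 5.05e-05, edgeR), Gabrp at 0.0996 and 0.479 (-6.87 ± 0.61, 0.000114), Sox6 at 7.62 and 16.2 (-3.47 ± 0.52, 0.00106) and Gata3 at 32.7 and 49.6 (-3.41 ± 0.29, 9.69e-05). Tgm3 rose to 219.9 and 150.7 CPM (1.79 ± 0.46, adjusted p = 0.012, edgeR), Gja1 to 1255 and 1781 (1.71 ± 0.23, 0.000638) and Sema4d, a semaphorin, to 110.7 and 121.2 (2.48 ± 0.28, 0.000289). Il33, at 190.5 and 558.4 CPM, overlapped the unwounded libraries (0.18 ± 0.49, adjusted p = 0.771, edgeR).

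The AP-1 list fell in the same comparison, as did Egr4 and Tnfaip3. The summed level of the list was 890 to 920.9 CPM in wounded EpdSC of CL against 30040 to 32370 in EpdSC. Of its 10 genes 9 were lower and 1 higher (all genes 28.2% and 30.2%), and its part in the falls was not tested. In the single wounded EpdSC library of BK the sum was 8672 CPM against 20140 to 25490. That library also stood apart from the wounded libraries of CL for the 40 genes. It lay below both EpdSC libraries of BK for 21 of the 40 (52.5%) and above both for 11 (27.5%), where the 293 genes gave 192 (65.5%) and 56 (19.1%). The 40 and the 293 were selected as high in those EpdSC libraries too. Tnfaip3 was at 699.5 CPM in it, between the EpdSC libraries, Serpinb2 at 4014 against 563 and 1487, Sox6 at 72.8, between its EpdSC libraries, and Bmp4 at 13.4, below both. With 1 library these values have no test, and neither the wound's age nor how the sets differ was analysed here.

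The largest falls in CL among genes near the regions were in genes that stood low in EpdSC. Egr4 was at 19.98 and 24.9 CPM in EpdSC of CL and had 0 counts in both wounded EpdSC libraries, at least 160-fold lower against the floor of 3 counts per library (adjusted p = 0.00066, edgeR), but was at 4.74 CPM in the wounded library of BK, between its EpdSC libraries at 4.17 and 9.32. Trpm3, a cation channel, fell at least 129-fold, Lrrn1 at least 42.7-fold, Atp6v1g3, a subunit of the vacuolar proton pump, at least 23.2-fold and Lrrc7 at least 22.6-fold, each with 0 counts in both wounded libraries of CL. Syt1, a vesicle calcium sensor, fell by 8.63 on the log2 scale (SE 0.68; adjusted p = 6.75e-05, edgeR). Most of these falls were not seen in the wounded library of BK. There Trpm3 (1.92 CPM), Lrrc7 (0.959) and Syt1 (1.12) lay between the EpdSC libraries, Lrrn1 at 1.97 lay above them (0.358 and 0.371), and Atp6v1g3 at 0.533 lay below (1.07 and 1.99).

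The largest rises in CL near the regions were in part genes of other cell types. Mpeg1, a macrophage perforin, went from 0.209 and 0.193 CPM to 56.4 and 95.4 (log2 fold change 8.50 ± 0.56, adjusted p = 3.58e-05, edgeR), and Ms4a6c, a gene of myeloid cells, Il2ra, a chain of the interleukin 2 receptor, and Dpt, a dermal matrix protein, had 0 counts in EpdSC of CL and rose at least 103-fold, at least 42.4-fold and at least 13.3-fold. Beside them, all 15 genes of the myeloid list were higher in wounded EpdSC, and the list summed to 6171 to 8015 CPM against 119 to 129 in EpdSC. All 10 genes of the fibroblast list were higher, summing to 1430 to 1672 CPM against 79.1 to 83.7, as were 12 of 14 tested genes of the T cell list. Their part in the rises was not tested. The other rises were Stfa3, a stefin protease inhibitor, at 8277 and 6303 CPM in wounded EpdSC against 12.7 and 10.9 (9.25 ± 0.33, adjusted p = 1.19e-05, edgeR), and the metalloproteinase Mmp10 (9.09 ± 0.86, 0.000256), which were at 7730 and 7169 and at 18.9 and 26.0 CPM in the wounded HFSC lineage, where the myeloid list summed to 221 to 230.2 CPM. In the wounded library of BK, Stfa3 at 2638 CPM and Mmp10 at 29.2 lay above both EpdSC libraries, Mpeg1 at 0.586 below both, and Ms4a6c and Dpt had 0 counts.

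**Figure D4:**
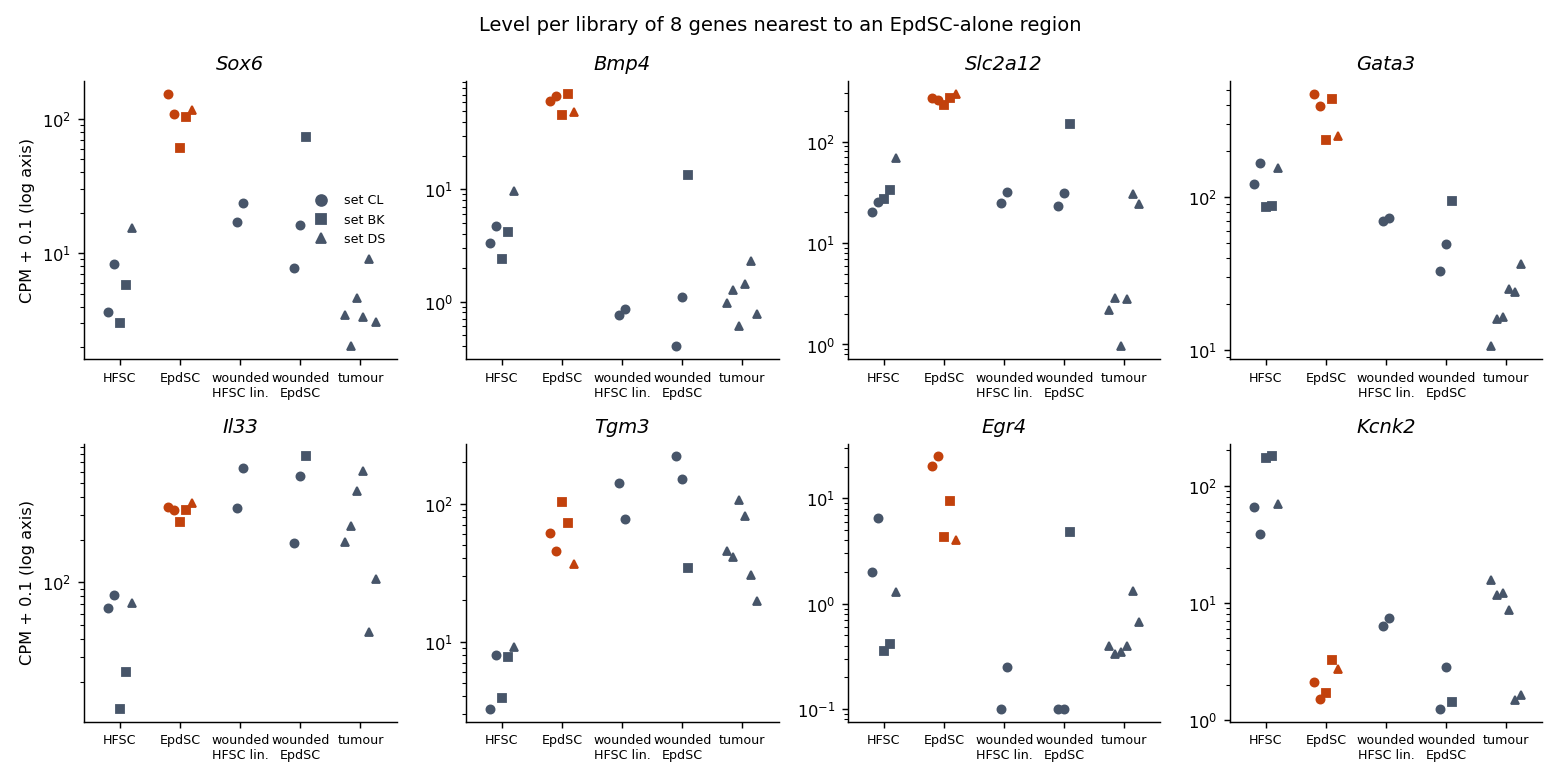
Level per library (CPM + 0.1, log axis) of 8 genes nearest to an EpdSC-alone region in HFSC, EpdSC, wounded HFSC lineage, wounded EpdSC and tumour libraries; each point is 1 library and its shape gives the set. Bmp4, Slc2a12 and Gata3 are highest in the 5 EpdSC libraries, as is Sox6 but for the wounded library of BK at 72.8 CPM, Il33 and Tgm3 reach as high in wounded or tumour libraries, and Kcnk2 is highest in HFSC.

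In tumour libraries, the genes near the regions were below EpdSC more often than genes at large. Every one of the 6 tumour libraries lay below every one of the 5 EpdSC libraries for 115 of 494 genes (23.3%, where all genes gave 13.1), and above for 52 (10.5%, all genes 13.8). These are levels with no test, across sets that differ in more than tumour state. For the 40 genes the counts were 19 (47.5%) and 1, and for the 293 genes 152 (51.9%) and 19 (6.48%), so the 40 were close to all genes with the same RNA pattern. The 40 and the 293 were selected as high in the EpdSC libraries of CL and BK, which favours lower tumour levels. Sox6 was at 1.92 to 8.97 CPM in the tumour libraries (median 3.32), Bmp4 at 0.5003 to 2.18 (1.02), Slc2a12 at 0.858 to 30.5 (2.73), Gata3 at 10.5 to 36.7 (20.1) and Satb1 at 0.701 to 3.73 (0.955), all below the EpdSC libraries. Il33, at 44.8 to 605 CPM (median 221.8), and Tgm3, at 19.5 to 105.5 (42.9), overlapped them.

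Of 16 gene lists for skin cell types and pathways, 9 had at least 1 gene with a region within 50 kb of its start, and each held few. Over all 17274 coding genes with a listed start, 1178 (6.82%) had one, and no list was tested against that share. The list of epidermal differentiation had 4 of 15 genes with a listed start (Ivl, Krt10, Krt77 and Tgm3), the list of cytokines 3 of 14 (Areg, Epgn and Il33), EpdSC identity 2 of 10 (Gata3 and Tfap2b) and the list of epidermal T cells 2 of 9 (Gata3 and Ikzf1). The AP-1 list had Atf3, the BMP and Wnt list Bmp4, the fibroblast list Dpt, the Merkel cell list Krt20 and the list of wound keratins Sprr1a. Areg, Atf3, Ivl, Krt20 and Sprr1a had another gene nearer to the region. None of the 13 HFSC identity genes with a listed start had a region, nor did any gene with a listed start on the lists of myeloid cells, Notch signalling, basal keratins, endothelial cells, melanocytes and sebaceous gland. Among genes without a listed start, Klf5 and Thbs1 of EpdSC identity and Sfrp1 of HFSC identity had a region within 50 kb of the gene's extent. So did Il34 and Ereg of the cytokine list, Krt1 and Calml3 of epidermal differentiation and Cd7 of the T cell list. Lama3 of basal keratins and adhesion, Slc45a2 of melanocytes and Gata6 of the sebaceous gland list did as well. Klf5, a basal epidermal factor, was at 189.2 and 159.7 CPM in EpdSC against 42.8 and 71.5 in HFSC of CL (log2 fold change 1.61, adjusted p = 0.02, edgeR), with its region at chr14:99263782-99264241 nearer to Pibf1.

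The named list genes did not move together. Krt10, a keratin of the first layer above the basal cells, was higher in EpdSC of CL (1.57 ± 0.36, adjusted p = 0.0306, edgeR), but in BK its log2 fold change was 0.36 ± 0.52 (0.696). Krt77 gave 0.28 ± 0.45 (adjusted p = 0.808, edgeR) and -0.65 ± 0.53 (0.466). Epgn, an EGF receptor ligand, was at 215.0 and 399.4 CPM in EpdSC against 23.8 and 68.7 in HFSC of CL (2.73 ± 0.84, adjusted p = 0.0872, edgeR), and at 119.9 and 237.1 against 4.37 and 7.98 in BK (4.86 ± 0.56, 0.00531). Tfap2b was lower in EpdSC of BK (-1.84 ± 0.45, adjusted p = 0.0452, edgeR) and gave -0.46 ± 0.38 (0.568) in CL. Ikzf1, a lymphocyte factor, had the region chr11:11685676-11686136, with its summit 134 bases past the start, yet its RNA was at or below 0.835 CPM in the EpdSC libraries of CL and BK, and Cd3e, which defines T cells, at or below 1.13. Of the T cell list, Gata3 and Thy1 were the 2 genes called higher in EpdSC in each set, and none was called lower. That list summed to 456.5 to 559.9 CPM in EpdSC and 135.8 to 210.3 in HFSC of CL, and without Gata3 to 61.4 to 84.9 and 14.3 to 43.8. In BK it summed without Gata3 to 340.3 and 123.9 CPM in EpdSC against 18.3 and 26.1 in HFSC, with Thy1 at 331.4 and 115.9 of the former. Its part in the difference in Gata3 was not tested.

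The regions with the highest fold enrichment lay near genes with little or no RNA in these cells. The 12 strongest had folds of 12.1 to 14.2 by the authors' values. The first, chr19:39882420-39882773, lay inside Cyp2c69, a cytochrome gene with 0 counts in every HFSC and EpdSC library, and the second, chr7:90871714-90872153 inside Dlg2, a synaptic scaffold gene, 218962 bases upstream of the listed start. Another, chr1:140226624-140227108, had the highest pileup of the whole set, 88, and lay 18900 bases upstream of Kcnt2, a potassium channel gene at or below 0.649 CPM in the EpdSC libraries of CL and BK. Naa11, Dpt, Olfr441, Kctd16, Cdh6, 1700129C05Rik and 1700015G11Rik were the nearest genes of 7 others, up to 1255688 bases away, all at or below 0.628 CPM in those libraries. Only Dlg2, Ibtk and Atp10a, of the nearest genes, were above 10 CPM there, and Atp10a, a phospholipid flippase, was higher in EpdSC in both sets (1.10 ± 0.29 and 3.50 ± 0.40).

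Plcxd2 had the most regions, 5, followed by Pde4d, Pkib, Lrrc7 and Gm48350 with 4, and 12 genes had 3. Plcxd2, a gene of the phospholipase C family, had its strongest, a fold of 6.38, inside the gene at chr16:46001774-46002516. It was at 55.3 and 50.5 CPM in EpdSC against 13.6 and 15.5 in HFSC of CL, and 11.8 and 30.4 against 2.06 and 6.13 in BK. EpdSC was above HFSC in all libraries of both sets, with log2 fold changes of 1.87 ± 0.49 and 2.37 ± 0.70 that did not pass the test (adjusted p = 0.0508 and 0.0772, edgeR). In wounded EpdSC of CL it fell by 7.0 on the log2 scale (SE 0.67; adjusted p = 0.00015, edgeR). Pde4d, a cAMP phosphodiesterase, and Pkib, an inhibitor of protein kinase A, had values of 0.30 ± 0.33 and 0.04 ± 0.44 in CL and 1.87 ± 0.59 and 1.80 ± 0.57 in BK, none past the test, and both were lower in wounded EpdSC of CL (-1.37 ± 0.34 and -3.14 ± 0.49). In the wounded library of BK, Pkib was at 133.8 CPM, above its EpdSC libraries at 29.2 and 50.7, and Pde4d at 5.81 lay between its own.

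Promoter sequence could be read for 39 RefSeq starts of which at least 150 of the 300 bases from 250 before to 50 after the start lay in an EpdSC-alone region. Their median GC content was 50.3%, against 62.3% for 6926 starts in shared EpdSC peaks and 52.7% for all 26794 starts. Motifs were searched on both strands by their letters alone, over all 300 bases. A match could thus lie outside the region, as the homeodomain match of Il33 did. The AP-1 motif TGANTCA was in 4 of the 39 (10.3%, Wilson interval 4.06 to 23.6), against 4.996% of starts in shared peaks and 7.98% of all starts. The GATA motif AGATAA was in 6 (15.4%, 7.25 to 29.7), against 4.996% and 11.4%, and the homeodomain motif TAATTA in 4 (10.3%, 4.06 to 23.6), against 1.98% and 5.27%. The KLF motif CCNCNCCC was in 19 (48.7%, 33.9 to 63.8), against 69.9% and 49.5%. For all 20 motifs the interval of the 39 included the share of all starts. For GATA, homeodomain and KLF it did not include the share in shared peaks, whose GC content was higher, and the part of GC content was not tested. The other motifs behind the capitals were TEAD (GGAATG, in 12.8%, 10.9% and 14.6% of the 3 groups of starts), TFAP2 (GCCNNNGGC, 23.1%, 26.7% and 16.6%), C/EBP (TTGCNNAA, 12.8%, 7.36% and 10.8%), POU (ATGCAAA, 5.13%, 3.57% and 4.63%), IRF (7.69%, 2.73% and 3.51%), the E-box CAGCTG (20.5%, 14.3% and 16.2%) and the NF-kB consensus (10.3%, 5.05% and 4.37%). POU and C/EBP matches share letters in Il33, as ATGCAAA and TTGCNNAA can overlap.

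RNA of the genes whose promoters are shown did not follow 1 pattern. H2-M2 was at 9.50 and 10.3 CPM in HFSC and 38.7 and 34.7 in EpdSC of CL, and at 1.03 and 1.42 against 3.43 and 15.2 in BK. EpdSC was above HFSC in all libraries of both sets, but neither difference passed the test (adjusted p = 0.223 and 0.0514, edgeR). Egr4 was higher in EpdSC of BK (4.54 ± 0.62, adjusted p = 0.00759, edgeR), and in CL its log2 fold change was 2.44 ± 0.69 (0.0766). Disp1, at 16.9 and 19.4 CPM in HFSC and 23.2 and 18.0 in EpdSC of CL, overlapped between the groups (adjusted p = 0.842, edgeR) and was lower in wounded EpdSC of CL, at 2.49 and 3.05 (-2.90 ± 0.40, 0.000746). The strongest promoter regions by fold, 8.31 and 7.97, lay at Skint10 and Skint5, which belong to a family of similar epidermal immunoglobulin genes whose reads may be shared between copies. Skint10 was at 15.96 and 10.7 CPM in EpdSC and 21.0 and 11.5 in HFSC of CL, and in BK at 10.4 and 6.26 against 11.4 and 42.4.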

How the data were processed

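ATAC-seq gave 1 deposited peak list for each of 4 populations and RNA-seq 1 deposited count table of 24061 genes and 21 libraries. Per the file headers, MACS2 2.1.1.20160309 called each list on paired fragments of a pooled alignment, with all duplicates kept, no control and a q-value cutoff of 0.05. The lists hold the authors' pileup signal, fold enrichment ratio, −log10 p and −log10 q. Bowtie, Picard, STAR and build mm10 are named in the submitters' processing notes. The gene counter, its annotation and its strand setting are not given in the sources used here, so reads of overlapping and antisense genes cannot be told apart. The authors' counts are whole reads per gene, 14216472 to 36425082 per library, and the line of totals was left out.

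Regions were joined at 1 base of overlap on chromosomes 1 to 19 and X. Gene starts came from RefSeq (GRCm38.p6), which listed them for 17274 of 21900 coding genes (78.9%), none on chromosome 18, where 77 of the regions lie. Counts were tested with edgeR 4.0.16 (TMM, filterByExpr, quasi-likelihood, Benjamini-Hochberg adjustment at 0.05) over all genes, separately for the sets CL and BK, in R 4.3.3. DESeq2 1.42.0 was an alternative. Groups came from the labels. Bounds for groups at 0 use 3 counts per library, and Wilson intervals (95%) and bounds cover counting error only. On simulated counts with 200 changed genes, the edgeR step recovered 92% of changes in CL (14380 genes) and 68% in BK (14341 genes) between EpdSC and HFSC, with 9.8% and 9.3% of calls false. Motifs were to be searched around summits, but no genome was used here, so promoter windows were searched instead.

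The genes named are those nearest the 12 regions of highest fold, the 12 with the largest smaller rise and 6 with the largest smaller fall over both sets, 6 with the most regions, 6 each with the largest fall and rise in wounded EpdSC, the genes of 16 lists with a region, and genes with a promoter in a region. Other named genes among the 40 and the 22, and Gm48350, were chosen after their values were seen. The regions and lists were chosen with earlier results of these data known.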

Additional observations from a re-analysis of the deposited data

Results flagged for a closer look

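For 33 of the 494 genes nearest to a region found in EpdSC alone and tested in both sets (6.68%, all genes 4.34%), EpdSC lay on opposite sides of HFSC in CL and BK, with no overlap between the groups in either. The difference between sets was not tested. Among the genes named by the rule or with a region within 1 kb of their start, these were Aadacl3, Lrrn1, Mcf2l, Mpeg1, Pros1, Prss23, Rasgrf1 and Trpc4, along with Areg, which has another gene nearer to its region.

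Aadacl3, whose promoter is printed above, was at 18.8 and 21.5 CPM in HFSC and 5.74 and 6.49 in EpdSC of CL, and at 1.09 and 1.42 against 3.16 and 2.83 in BK. Its log2 fold change was -1.72 in CL and 1.26 in BK. Prss23, a serine protease, was at 227 and 210.2 CPM in HFSC and 274.9 and 244.6 in EpdSC of CL, and at 648.6 and 649.8 against 190.9 and 227.7 in BK, with log2 fold changes of 0.26 and -1.62. Trpc4, a cation channel, was at 7.78 and 12.3 CPM in HFSC and 4.90 and 7.52 in EpdSC of CL, and at 0.0286 and 0.434 against 2.68 and 4.498 in BK, with log2 fold changes of -0.69 and 3.93. These 3 passed the test in 1 set. The others passed it in neither. The log2 fold changes in CL and BK were -1.13 and 2.93 for Areg, an EGF receptor ligand, -1.27 and 2.05 for Lrrn1, -0.65 and 0.91 for Mcf2l, -0.80 and 2.11 for Mpeg1, -0.48 and 1.11 for Pros1, which encodes protein S, and -0.79 and 2.28 for Rasgrf1. Lrrn1 and Mpeg1 stayed at or below 1.28 CPM in the HFSC and EpdSC libraries of BK.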

How the results depend on the processing

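The 2177 regions became 1242 when EpdSC peaks needed a −log10 q of at least 5, 3616 without the wound list and 3648 without the HFSC list. The share near a start was 6.01% within 2.5 kb. The AP-1 motif was in 0 of the 14 promoters in the highest GC band, where 3.44% of all promoters had it, too few to tell apart. With a start within 10 kb, 24 genes (12.6%) were higher and 7 (3.66%) lower in EpdSC of CL, and 40 (21.7%) and 9 (4.89%) in BK. The counts were 40 (20.9%) and 96 (50.3%) in wounded EpdSC, and 31 (16.2%) and 84 (44%) in the wounded HFSC lineage. With starts within 200 kb, 63 genes (8.03%) were lower in CL, 65 (8.38%) in BK and 359 (45.7%) in wounded EpdSC. Taking every gene within 50 kb gave 56 (6.81%) lower in CL, and 197 (24%) and 165 (20.1%) higher in wounded EpdSC and the wounded HFSC lineage. Regions with −log10 q of at least 5 gave 16 (5.19%) lower in CL and 18 (5.98%) in BK. They gave 63 (20.5%) higher and 146 (47.4%) lower in wounded EpdSC, and 61 (19.8%) and 108 (35.1%) in the wounded HFSC lineage. Without genes near HFSC-alone regions the counts were 29 (12.8%) and 8 (3.54%) in CL and 40 (18.6%) and 8 (3.72%) in BK. They were 54 (23.9%) and 101 (44.7%) in wounded EpdSC, and 45 (19.9%) and 75 (33.2%) in the wounded HFSC lineage. Nearest genes by extent, an alternative chosen after seeing the data, gave 95 and 76 (10.6% and 8.44%) and 138 and 72 (15.6% and 8.16%). In the same order, the wounded groups gave 161 and 412 (17.9% and 45.8%), and 162 and 306 (18% and 34%). Fitting only the groups compared gave 110 (22.6%) and 57 (11.7%) in CL, where all genes gave 938 (6.86%) and 1564 (11.4%). For the settings before that fit, all genes gave 3.63% higher and 7.19% lower in CL and 6.47% and 7.91% in BK. In wounded EpdSC all genes gave 30.2% and 28.2%, and in the wounded HFSC lineage 21.5% and 22.2%. The settings of this paragraph change how many regions, genes or libraries enter.

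Leaving out 1 library gave 19 to 50 higher and 11 to 24 lower in CL, 47 to 200 and 25 to 89 in BK, 61 to 95 and 182 to 270 in wounded EpdSC, and 40 to 56 and 108 to 135 in the wounded HFSC lineage. The share of all genes called moved in the same direction in each of these fits. A lone library was assumed to vary like the other groups, and the cause of the shifts was not tested. The labels number replicates alike, and same-numbered libraries deviated together in the wounded groups of CL (correlation 0.671) but not over all groups (-0.356 to 0.107 for the other pairs of CL, and -0.287 in BK), so they were not treated as paired. With a replicate block the counts were 61 (11.8%) and 33 (6.37%) in CL, where all genes gave 3.31% and 6.6%. In BK they were 107 (21.2%) and 41 (8.12%), where all genes gave 7.39% and 9.23%. In wounded EpdSC they were 95 (18.3%) and 240 (46.3%, all genes 29% and 28.2%). In the wounded HFSC lineage they were 90 (17.4%) and 186 (35.9%, all genes 20.7% and 21.2%). RLE scaling moved the median of all genes in wounded EpdSC from -0.04 to 0.07, and none of 128 called fold changes of named genes changed sign under the settings run, while 16 of 62 that missed the test did, in 22 of 541 values. Windows of 100 and 300 bases around summits were not run.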
